A study of Mus musculus with 16 samples.

Results

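Prostaglandins and leukotrienes are lipid mediators made from arachidonic acid, and the 10 genes described here cover the main steps of that route in the epidermis. The genes were chosen by name, as the rows of the count table whose Ensembl identifier maps to Pla2g4a, Ptgs1, Ptgs2, Ptges, Hpgd, Ptger2, Ptger4, Alox5, Alox5ap and Alox15 (10 of 50600 gene identifiers). All 10 passed the filter on low counts and were among the 22155 genes tested.

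The libraries come from 16 female C57/B6J mice, 1 library per mouse and 4 per group. From 5 wk of age the mice were kept for 3 wk on the purified AIN-93M diet, which is poor in ligands of the aryl hydrocarbon receptor (AhR; labelled SYNTH, here the AhR-poor diet), or on the same diet with indole-3-carbinol, a precursor of AhR ligands, at 200 ppm (the I3C diet). PBS alone (vehicle) or PBS with 50 μg of papain, a plant protease used as a model allergen, was then injected in the footpad, and 6 hr later the epidermis was split from the dermis with dispase and depleted of dead cells. The 4 groups were I3C vehicle (T108 to T111), I3C papain (T106, T113, T114, T115), AhR-poor vehicle (T100 to T103) and AhR-poor papain (T104, T105, T107, T112), and values are listed in the order of these names. Mice on the same diet shared a cage, so diet and cage cannot be told apart.

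The release of arachidonic acid from membranes by cytosolic phospholipase A2 is the first step of the route. The cyclooxygenases turn the acid into prostaglandin H2, which the prostaglandin E synthase encoded by Ptges converts to prostaglandin E2. This mediator of pain, swelling and vessel dilation in inflamed skin acts through receptors that include EP2 and EP4. On the other branch, 5-lipoxygenase with its activating protein makes leukotrienes, which attract and activate leukocytes and are produced mainly by myeloid cells, mast cells among them. In the skin, keratinocytes are known as a source of prostaglandin E2, and Langerhans cells, the resident antigen-presenting cells of the epidermis, respond to it through EP4.

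Library totals ran from 22500821 to 51844375 counts, and TMM scaling factors from 0.937 to 1.07. Values are CPM, in which each count is divided by the total of its library, scaled with those factors, and 3 counts correspond to 0.0569 to 0.130 CPM depending on the library. Keratinocyte markers dominated the samples in all groups, with summed levels of 20710 to 36310 CPM for 6 basal markers and 17150 to 41740 CPM for 7 suprabasal markers, and 0 of these 13 markers were called in any comparison of 2 groups. The samples also held RNA of other cells, to a degree that differed between groups. The sum of 8 dermal fibroblast markers was 9.63 to 13.4 CPM in I3C vehicle, 2.17 to 11.5 in I3C papain, 99.7 to 178 in AhR-poor vehicle and 269 to 679 in AhR-poor papain libraries. The sum of 5 red blood cell markers was at most 17.2 CPM on the I3C diet and at least 73.2 CPM on the AhR-poor diet. In such bulk samples, a change in the number of cells of a type and a change in the RNA per cell cannot be told apart.

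Per length, the 3 enzyme genes from arachidonic acid to prostaglandin E2 had the highest levels. Averaged over the 16 libraries and divided by exon length, Ptgs1 stood at 55.3, Ptges at 38.3 and Ptgs2 at 23.9 CPM per kb. Below them came Hpgd at 7.46, Pla2g4a at 5.64, Alox5ap at 5.10, Ptger4 at 3.11 and Alox5 at 1.87 CPM per kb. Alox15 at 0.117 and Ptger2 at 0.0575 CPM per kb were close to the limit of detection, with 186 and 192 counts in all 16 libraries together. The order changed with the group: Ptges lay below Ptgs1 in both vehicle groups (19.0 against 47.9 on the I3C diet and 17.3 against 58.7 on the AhR-poor diet). With papain the ranges of both genes overlapped, at 55.2 to 78.7 for Ptges and 50.5 to 67.3 CPM per kb for Ptgs1 on the I3C diet. Alox5ap, at 1.46 CPM per kb in I3C papain libraries, was below Ptger4 (2.25), and at 11.9 in AhR-poor papain libraries it was above it (2.79). The ranges of Hpgd and Pla2g4a overlapped in both vehicle groups and did not overlap in the papain groups, where Hpgd was higher.

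**Figure D1:**
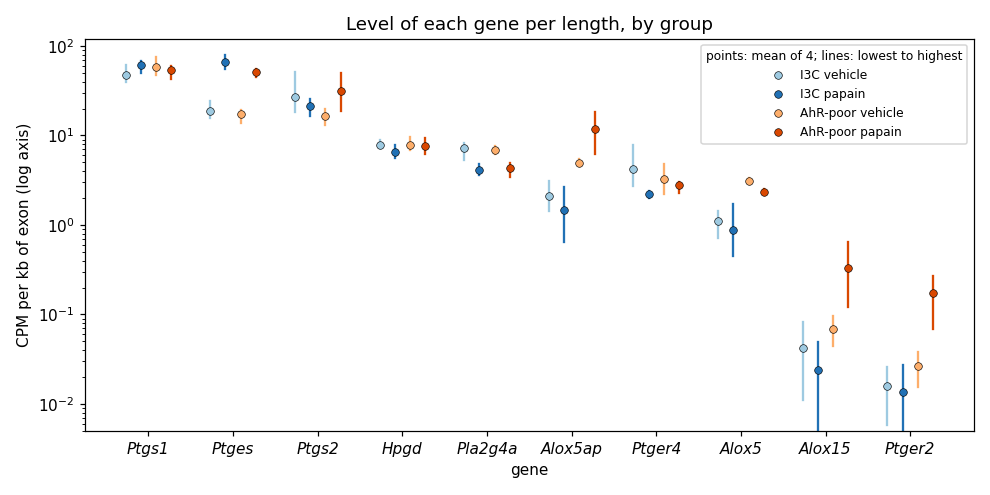
Mean CPM per kb of exon (log axis) of the 10 genes in the 4 groups, with lines from the lowest to the highest of the 4 libraries. Ptgs1, Ptges and Ptgs2 lie highest, and Alox15 and Ptger2 lowest with means under 0.34 CPM per kb in every group; lines that reach the lower edge of the axis go down to 0.

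The 4 comparisons of 2 groups and their interaction give counts for the 10 genes that can be read against the share of all tested genes called in each. Calls are from edgeR's quasi-likelihood test, where a call needed both an adjusted p (Benjamini-Hochberg) under 0.01 and a log2 fold change beyond 1 in either direction. Papain against vehicle on the AhR-poor diet called 3 of the 10 genes higher (Ptges, Ptger2 and Alox15), where 6.04% of all genes were, and 0 lower, where 2.42% were. On the I3C diet papain called 1 higher (Ptges; 3.69% of all genes) and 0 lower (5.29% of all genes). Between the diets with papain, 4 had the higher level on the AhR-poor diet (Ptger2, Alox5, Alox5ap and Alox15; 7.15% of all genes) and 0 lower (0.0993% of all genes). Between the diets with vehicle 0 of the 10 were called in either direction, with 1.59% of all genes higher on the AhR-poor diet and 0.00% lower. The interaction called 0 of the 10, with 0.0181% of all genes higher and 0.00% lower.

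Some genes outside the calls had small unadjusted p-values. At an unadjusted p below 0.05 in edgeR, papain on the AhR-poor diet had 5 of the 10 higher (21.6% of all genes) and 1 lower (20.3%), and papain on the I3C diet 2 higher (20.4%) and 2 lower (22.9%). Comparing the diets at that p, the AhR-poor side had 4 higher (17.5%) and 1 lower (14.5%) with papain, but 2 higher (8.94%) and 0 lower (3.54%) with vehicle. For the interaction this count was 4 higher (7.41% of all genes) and 0 lower (6.07%). DESeq2 called 0 lower in all 5, and 1 higher between the diets with vehicle (2.69% of all genes). The shares of all genes called lower in DESeq2 were 2.38% for papain on the AhR-poor diet and 5.45% on the I3C diet. They were 0.0271% between the diets with vehicle, 0.149% with papain and 0.0226% for the interaction. Over the 10 genes, the median was a log2 fold change of 0.43 for papain on the AhR-poor diet and -0.34 for papain on the I3C diet, against -0.00 and -0.04 over all genes tested. It was 0.15 for the diets with vehicle and 0.43 with papain, against -0.01 and 0.01 over all genes. The comparisons share groups of libraries, so their values for one gene are not independent of each other.

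**Figure D2:**
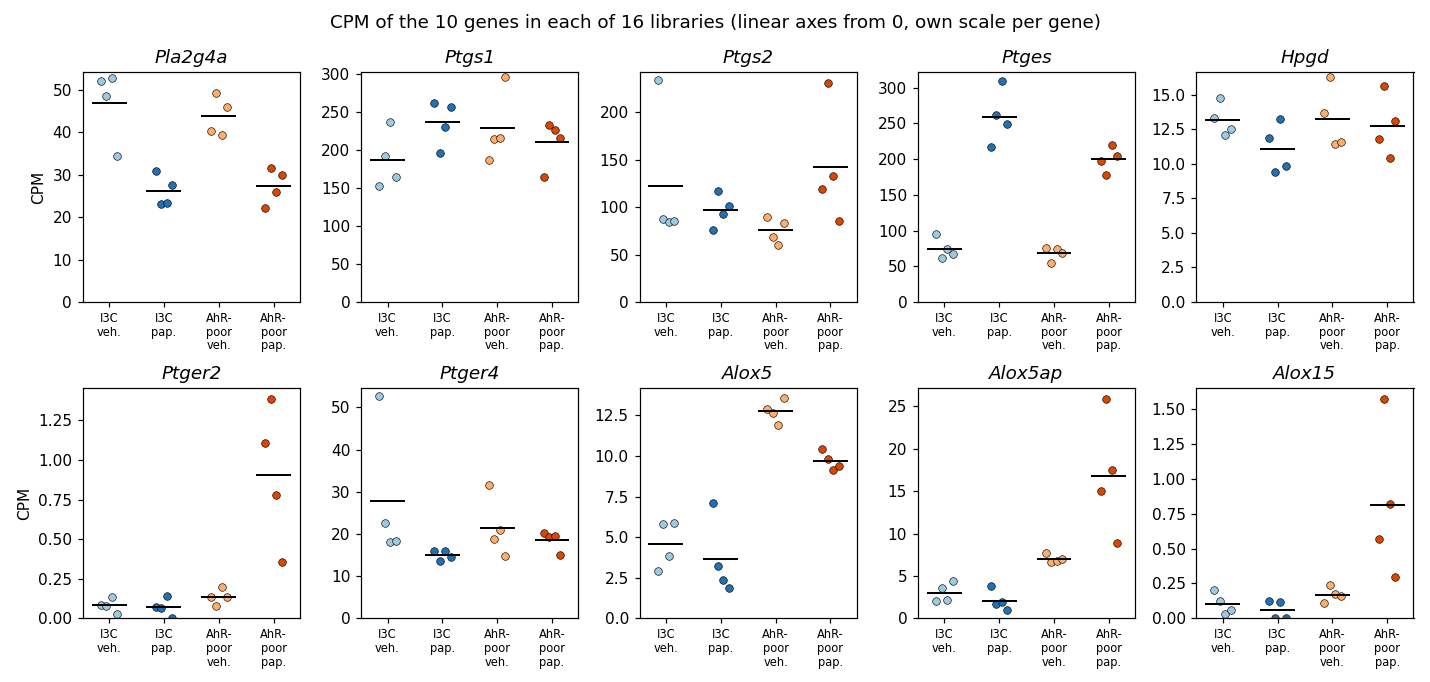
CPM of the 10 genes in each of the 16 libraries (linear axes from 0, a scale of its own for each gene), with the mean of each group of 4 as a bar. Ptges is higher in all papain libraries than in any vehicle library, and Alox5 is higher in all AhR-poor libraries than in any I3C library.

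**Figure D3:**
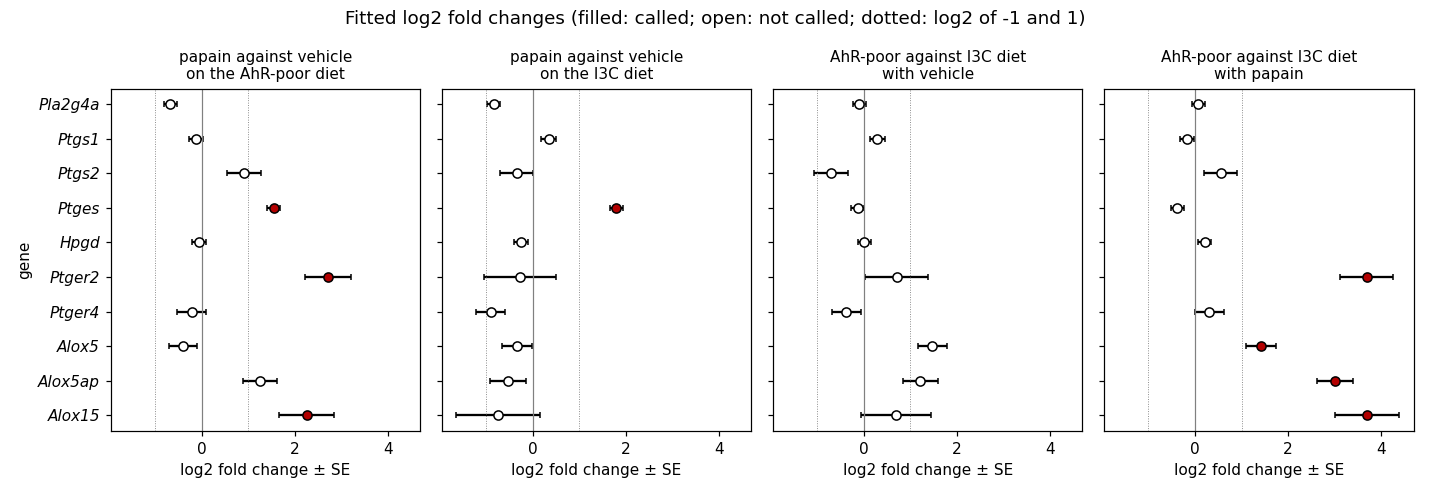
Log2 fold change with its standard error for the 10 genes (rows) in the 4 comparisons of 2 groups (panels), filled where called. Ptges is filled in both papain panels, and Ptger2, Alox5, Alox5ap and Alox15 in the panel of the diets with papain.

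Pla2g4a (chromosome 1, 149829618 to 149961290, minus strand, GRCm38) encodes cytosolic phospholipase A2, which frees arachidonic acid from membrane phospholipids. Its level was 51.9, 48.4, 52.6 and 34.3 CPM in the 4 I3C vehicle libraries and 30.8, 23.1, 23.2 and 27.6 CPM in the I3C papain libraries. The AhR-poor libraries had 40.3, 49.3, 39.3 and 45.8 CPM with vehicle and 22.1, 31.5, 25.9 and 30.0 CPM with papain. Every papain library was thus below every vehicle library. The log2 fold change was -0.67 (SE 0.14, edgeR adjusted p = 0.00105) on the AhR-poor diet and -0.84 (SE 0.14, adjusted p = 1.14e-04) on the I3C diet, both within the fold limit for a call, so the decrease is not among the calls. It had the smallest exact two-sided permutation p that 4 against 4 libraries can give, 0.0286, on both diets. Between the diets the difference was -0.10 with vehicle (95% interval -0.40 to 0.20) and 0.07 with papain (-0.24 to 0.37).

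Ptgs1 (chromosome 2, 36230426 to 36252272, plus strand) encodes cyclooxygenase-1, the constitutive form of the enzyme. It was 152, 192, 236 and 165 CPM in I3C vehicle and 261, 196, 230 and 256 CPM in I3C papain libraries. On the AhR-poor diet the values were 186, 215, 216 and 295 CPM with vehicle and 164, 233, 227 and 216 CPM with papain. The groups overlapped in all 4 comparisons. The log2 fold change for papain was -0.12 on the AhR-poor diet (95% interval -0.46 to 0.22) and 0.34 on the I3C diet (-0.00 to 0.68), and the diets differed by 0.29 with vehicle (-0.05 to 0.64) and by -0.17 with papain (-0.51 to 0.17). A change of the size seen for Ptges lies outside these intervals. Of its exonic bases, 148 of 3884 are shared with a gene on the other strand, and the strand setting of the counting is not given in the sources used here.

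Ptgs2 (chromosome 1, 150100031 to 150108227, plus strand) encodes cyclooxygenase-2, known as the inducible form. It was 234, 87.8, 84.3 and 85.0 CPM in I3C vehicle and 76.0, 117, 93.1 and 101.4 CPM in I3C papain libraries. The AhR-poor groups had 89.8, 68.2, 60.4 and 83.3 CPM with vehicle and 119, 230, 133 and 85.9 CPM with papain. Library T108 of the I3C vehicle group stood apart from its group at 234 CPM, and T105 of the AhR-poor papain group was nearly as high. The groups overlapped in every comparison. The log2 fold change for papain on the AhR-poor diet was 0.92 (SE 0.36, edgeR adjusted p = 0.0668, exact permutation p = 0.0571) and on the I3C diet -0.34 (SE 0.36, adjusted p = 0.511). The interaction, the papain effect on the AhR-poor diet minus that on the I3C diet, was 1.26 (SE 0.51, unadjusted p = 0.0272, adjusted p = 0.313). Without T108 the I3C papain value turned to 0.18 (adjusted p = 0.661) and the interaction was 0.74 (adjusted p = 0.416), while papain on the AhR-poor diet stayed at 0.92 with an adjusted p of 0.0104 in edgeR. Without T105 the latter was 0.58 (adjusted p = 0.231), the lowest of the 16 values with 1 library left out, so neither library's removal gave a call.

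Ptges (chromosome 2, 30889471 to 30929863, minus strand) encodes microsomal prostaglandin E synthase-1, which is known to be inducible and to work with cyclooxygenase-2. It was the 1 gene of the 10 called higher with papain on both diets. It was 95.5, 61.3, 74.8 and 67.1 CPM in I3C vehicle and 217, 261, 309 and 250 CPM in I3C papain libraries. The AhR-poor libraries had 75.7, 54.1, 74.1 and 68.4 CPM with vehicle and 197, 178, 220 and 204 CPM with papain. All 8 papain libraries were above all 8 vehicle libraries. Papain raised it from 68.1 ± 9.85 to 200 ± 17.2 CPM on the AhR-poor diet (SD, n = 4; log2 fold change 1.55, SE 0.14, edgeR adjusted p = 2.96e-07) and from 74.7 ± 14.98 to 259 ± 38.2 CPM on the I3C diet (log2 fold change 1.80, SE 0.14, adjusted p = 3.11e-08). With papain it was slightly lower on the AhR-poor diet (log2 fold change -0.38, SE 0.13), which did not pass the test (adjusted p = 0.0569), and the interaction was -0.24 (95% interval -0.66 to 0.17).

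The promoter sequences of the 3 enzymes from arachidonic acid to prostaglandin E2 are shown as a description only. A link between their motifs and the calls was not tested. Each window is from RefSeq on GRCm38.p6 and runs from 250 bases before the annotated start to 50 after it, written 5′ to 3′ on the strand of the gene. A position is that of the first base of a motif relative to the start. The Ptges window lies inside the span given above for this gene, which reaches 30929863 on the minus strand. Its annotated start is thus not the only one of the gene. Promoter windows of 8 of the 10 genes were matched. Capitals mark the motifs found on either strand: the AhR core GCGTG, the core of the cyclic AMP response element (CRE) TGACG, and the C/EBP site TTNNGNAA.
Ptgs1, chr2:36230176-36230475: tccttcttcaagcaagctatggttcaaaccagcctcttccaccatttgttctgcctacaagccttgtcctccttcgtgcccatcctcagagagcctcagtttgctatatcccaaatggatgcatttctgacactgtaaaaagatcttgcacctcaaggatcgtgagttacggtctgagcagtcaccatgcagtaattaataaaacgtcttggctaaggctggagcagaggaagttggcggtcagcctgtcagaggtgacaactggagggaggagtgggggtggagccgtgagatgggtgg
Ptgs2, chr1:150099781-150100080: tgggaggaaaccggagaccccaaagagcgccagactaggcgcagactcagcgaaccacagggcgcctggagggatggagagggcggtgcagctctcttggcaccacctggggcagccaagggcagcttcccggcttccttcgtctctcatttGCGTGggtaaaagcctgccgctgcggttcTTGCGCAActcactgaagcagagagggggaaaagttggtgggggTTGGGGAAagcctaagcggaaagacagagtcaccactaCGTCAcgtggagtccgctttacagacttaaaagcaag
Ptges, chr2:30903248-30903547: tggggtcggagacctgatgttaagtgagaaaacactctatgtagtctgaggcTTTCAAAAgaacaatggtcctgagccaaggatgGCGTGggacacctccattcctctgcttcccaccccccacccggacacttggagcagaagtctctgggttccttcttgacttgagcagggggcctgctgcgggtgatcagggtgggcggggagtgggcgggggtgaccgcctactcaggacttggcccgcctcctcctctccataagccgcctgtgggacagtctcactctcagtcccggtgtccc

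The Ptgs2 window held 1 AhR core at -98, 2 C/EBP matches at -69 and -25, and 1 CRE core on the opposite strand at 14. The Ptges window held 1 AhR core at -165 and 1 C/EBP match on the opposite strand at -198. The Ptgs1 window held none of the 6 motifs searched, which also included the AP-1 site TGANTCA, the TATA box TATAAA and the NF-kB consensus. Such matches are common: of 32841 promoters of the same length, 32.4% hold the AhR core, 20.8% the CRE core, 40.7% the C/EBP site, 7.81% the AP-1 site, 13.6% the TATA box and 8.46% the NF-kB consensus. The AhR core was also present in the window of Hpgd and in 1 of the 2 windows of Pla2g4a, and absent from those of Ptger2, Ptger4 and Alox5.

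Hpgd (chromosome 8, 56294585 to 56321043, plus strand) encodes the dehydrogenase that inactivates prostaglandin E2. It was 13.3, 14.8, 12.1 and 12.5 CPM in I3C vehicle and 11.9, 9.40, 13.2 and 9.82 CPM in I3C papain libraries. On the AhR-poor diet the values were 13.6, 16.3, 11.4 and 11.6 CPM with vehicle and 11.8, 15.6, 10.4 and 13.1 CPM with papain. It was the steadiest of the 10 genes, and its groups overlapped throughout. The log2 fold change for papain was -0.05 on the AhR-poor diet (95% interval -0.36 to 0.26) and -0.25 on the I3C diet (-0.56 to 0.06). Between the diets it was 0.01 with vehicle (-0.30 to 0.32) and 0.21 with papain (-0.11 to 0.52), so a change beyond 1 lies outside all 4 intervals.

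Ptger2 (chromosome 14, 44988195 to 45003820, plus strand) encodes EP2, a prostaglandin E2 receptor that raises cyclic AMP. It had 3, 3, 5 and 1 counts in I3C vehicle and 3, 2, 5 and 0 counts in I3C papain libraries. The AhR-poor groups had 5, 3, 8 and 5 counts with vehicle and 45, 73, 18 and 13 counts with papain. In CPM these were at most 0.198 in the first 3 groups and 1.11, 1.38, 0.779 and 0.354 in the AhR-poor papain group, which overlapped with none of the others. Papain on the AhR-poor diet gave a log2 fold change of 2.71 (SE 0.50, edgeR adjusted p = 2.83e-04), and the diets with papain differed by 3.69 (SE 0.56, adjusted p = 9.45e-05). Of its exonic bases, 246 of 5193 are shared with genes on the other strand. On the I3C diet the value was -0.27, with a 95% interval from -1.94 to 1.40 at this depth. The interaction of 2.98 (SE 0.93, unadjusted p = 0.0042) did not pass after adjustment (0.177), so a difference between the papain effects on the 2 diets was not established by this test.

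Ptger4 (chromosome 15, 5206661 to 5244187, minus strand) encodes EP4, the other receptor of this kind, which was far more abundant here than EP2 per length. It was 52.6, 22.5, 18.01 and 18.3 CPM in I3C vehicle and 15.9, 13.5, 15.8 and 14.5 CPM in I3C papain libraries. The AhR-poor libraries had 31.6, 18.7, 20.9 and 14.7 CPM with vehicle and 20.3, 19.2, 19.6 and 15.04 CPM with papain. T108 was again far above the rest of the I3C vehicle group, and all 4 vehicle libraries on this diet were above the papain libraries. The log2 fold change for papain on the I3C diet was -0.90 (SE 0.32, edgeR adjusted p = 0.0388, exact permutation p = 0.0286), which did not reach a call, and without T108 it was -0.39 (adjusted p = 0.129). On the AhR-poor diet it was -0.21 (95% interval -0.90 to 0.47). Of its exonic bases, 1097 of 6648 are shared with genes on the other strand.

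Alox5 (chromosome 6, 116410077 to 116461178, minus strand) encodes 5-lipoxygenase, which starts leukotriene synthesis. It was 2.93, 5.79, 3.81 and 5.88 CPM in I3C vehicle and 7.09, 3.24, 2.34 and 1.84 CPM in I3C papain libraries. On the AhR-poor diet the values were 12.9, 12.7, 11.9 and 13.6 CPM with vehicle and 10.4, 9.83, 9.13 and 9.35 CPM with papain. All 8 libraries of the AhR-poor diet were above all 8 of the I3C diet. With papain the difference was called (9.68 ± 0.568 against 3.63 ± 2.38 CPM; SD, n = 4; log2 fold change 1.41, SE 0.32, edgeR adjusted p = 0.00534). With vehicle it was as large (12.8 ± 0.682 against 4.602 ± 1.47 CPM; log2 fold change 1.47, SE 0.32) but narrowly missed the threshold (adjusted p = 0.0152). The 95% interval of the interaction, -1.03 to 0.91 around -0.06, is wide. Within the AhR-poor diet every papain library was below every vehicle library, yet the log2 fold change of -0.40 did not pass (adjusted p = 0.357). The call between the diets with papain was lost without any 1 of 6 libraries (T104, T105, T107, T113, T114 or T115), with log2 fold changes from 1.19 to 1.99 and adjusted p up to 0.0227 when any 1 library was left out.

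Alox5ap (chromosome 5, 149264767 to 149288153, plus strand) encodes the activating protein that presents arachidonic acid to 5-lipoxygenase. It was 2.04, 3.57, 2.15 and 4.35 CPM in I3C vehicle and 3.75, 1.70, 1.94 and 0.920 CPM in I3C papain libraries. The AhR-poor groups had 7.71, 6.67, 6.73 and 7.03 CPM with vehicle and 15.1, 25.9, 17.5 and 8.84 CPM with papain. The AhR-poor papain libraries were the highest, the AhR-poor vehicle libraries came next, and both I3C groups lay below them without overlap. Between the diets with papain the log2 fold change was 3.01 (SE 0.39, edgeR adjusted p = 6.75e-05). Papain on the AhR-poor diet gave 1.26 (SE 0.36, adjusted p = 0.0133) and the diets with vehicle differed by 1.22 (SE 0.37, adjusted p = 0.12), so neither was called. On the I3C diet the papain value was -0.53 (95% interval -1.39 to 0.32), and the interaction of 1.79 (SE 0.53, unadjusted p = 0.0042) had an adjusted p of 0.177. Without T112, the AhR-poor papain library with the lowest value, papain on the AhR-poor diet was called. It was also called without T106 or T115, with adjusted p from 0.00325 to 0.0491 over the 16 libraries left out in turn. Of its exonic bases, 189 of 1420 are shared with a gene on the other strand.

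Alox15 (chromosome 11, 70344152 to 70352031, minus strand) encodes the mouse 12/15-lipoxygenase, known from macrophages and eosinophils. It had 7, 5, 1 and 2 counts in I3C vehicle and 5, 0, 4 and 0 counts in I3C papain libraries. The AhR-poor libraries had 4, 9, 7 and 6 counts with vehicle and 23, 83, 19 and 11 counts with papain. The last group, at 0.566, 1.57, 0.822 and 0.299 CPM, was above every other library, and T105 alone gave 83 of its counts. Papain on the AhR-poor diet gave a log2 fold change of 2.26 (SE 0.58, edgeR adjusted p = 0.00519), and the diets with papain differed by 3.70 (SE 0.69, adjusted p = 6.77e-04). The first of these calls was lost without T100, T102, T103, T105 or T107, with log2 fold changes from 1.67 to 2.54 and adjusted p up to 0.0403. On the I3C diet the value was -0.75, with a 95% interval from -2.71 to 1.22 at this depth, and the interaction of 3.00 (SE 1.07, unadjusted p = 0.0106) had an adjusted p of 0.242.

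Marker sums of some other cell types shared part of the group pattern of the leukotriene genes. The summed level of 6 Langerhans cell markers was 348 to 638 CPM in I3C vehicle, 372 to 776 in I3C papain, 861 to 967 in AhR-poor vehicle and 915 to 1123 in AhR-poor papain libraries. These 6 markers were Cd207, Epcam, H2-Aa, H2-Ab1, Cd74 and Mfge8. The paper reports no significant difference between the diets in epidermal Langerhans cell density (ear, by imaging) or number (footpad, by flow cytometry). Both were measured without papain. After papain, the paper found fewer Langerhans cells in the draining lymph nodes on the AhR-poor diet, and it proposes that these cells were retained in the skin. Like Alox5, the Langerhans cell sum was higher in all 8 AhR-poor libraries than in any I3C library, although 0 of its 6 markers were called in any of the comparisons. The I3C papain library T106 had both the highest Alox5 and the highest of these sums on that diet. Within the AhR-poor diet, Alox5 was lower in every papain library (9.13 to 10.4 CPM) than in any vehicle library (11.9 to 13.6 CPM). The Langerhans cell sum was not lower there with papain (median 994 against 895 CPM). The summed level of 7 monocyte and macrophage markers was 19.8 to 29.2, 13.4 to 32.3, 49.4 to 59.6 and 80.2 to 271 CPM in the same order of groups. Of these 7 markers, 5 were called higher with papain on the AhR-poor diet, 0 with papain on the I3C diet, 2 between the diets with vehicle and 7 between the diets with papain. Within the AhR-poor papain group, T105 had the highest and T112 the lowest sum. The same 2 libraries were the highest and the lowest for Ptgs2, Ptger2, Alox5ap and Alox15, and also for the neutrophil (542 and 80.3 CPM), mast cell (22.3 and 8.19), fibroblast (679 and 269) and red blood cell (1254 and 267) marker sums, so this order is shared by several lists. The sum of 5 adipocyte markers was at most 0.540 CPM in I3C libraries. It was 0.885 to 1.80 CPM in AhR-poor vehicle and 1.93 to 4.875 CPM in AhR-poor papain libraries. The sums of other lists did not follow the leukotriene genes. The T cell and platelet sums were higher with papain on both diets. However, papain on the I3C diet called 0 of 6 T cell and 0 of 3 tested platelet markers, and Gp1ba and Gp9 were at 3 counts or fewer throughout. The pericyte and smooth muscle sum overlapped between all groups, but 2 of its 5 markers were called higher on the AhR-poor diet with papain.

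The summed level of the neutrophil list also rose with papain on the I3C diet. The list holds S100a8, S100a9, Csf3r, Cxcr2, Retnlg, Ly6g, Mpo and Elane. The share of each gene in the sum is not given here, and the sum is not a count of neutrophils. The 8 neutrophil markers summed to 0.861 to 1.89 CPM in I3C vehicle and 4.02 to 5.06 CPM in AhR-poor vehicle libraries. With papain they reached 44.6 to 74.4 CPM on the I3C diet and 80.3 to 542 CPM on the AhR-poor diet. The log2 fold changes of Alox5ap and Alox15 for papain on the I3C diet were -0.53 and -0.75. Their 95% intervals, -1.39 to 0.32 and -2.71 to 1.22, both include 0. Mpo and Elane were at 3 counts or fewer in every library, and Ly6g in all but AhR-poor papain libraries. Of the 6 neutrophil markers tested, 6 were called higher with papain on the AhR-poor diet, 3 with papain on the I3C diet and 3 between the diets with papain. The 7 mast cell markers summed to 1.39 to 1.92, 1.27 to 3.51, 3.03 to 7.22 and 8.19 to 22.3 CPM in the 4 groups, an order of groups like that of the macrophage sum, and 6 of the 7 were called higher on the AhR-poor diet with papain. On the I3C diet, Cpa3, Cma1, Tpsb2, Fcer1a and Ms4a2 were at 3 counts or fewer in every library. The fibroblast list had 8 of 8 markers called higher in each comparison of 2 groups except papain on the I3C diet (0 higher, 1 lower). The interaction called 0 of these 8. The part of these cell types in the results for Alox5, Alox5ap, Alox15 and Ptger2 was not tested.

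**Figure D4:**
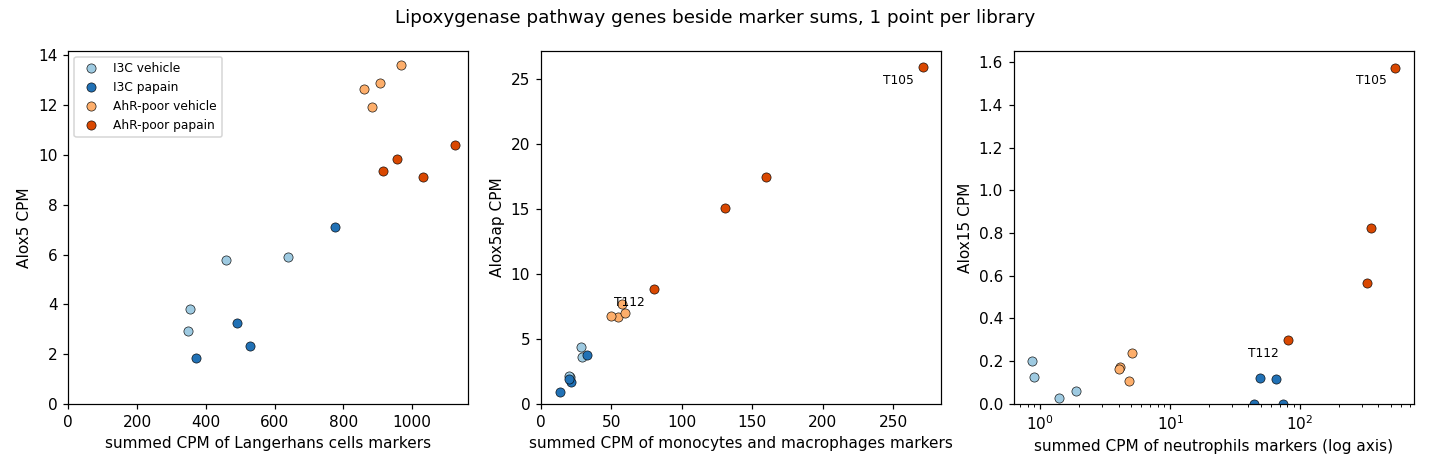
CPM of Alox5, Alox5ap and Alox15 in each library against the summed CPM of Langerhans cell, monocyte and macrophage, and neutrophil markers (the last on a log axis). Alox5ap and the macrophage sum are lowest in I3C libraries and highest in T105. In I3C papain libraries Alox15 is under 0.13 CPM, close to the limit of detection, and the neutrophil sum is 44.6 to 74.4 CPM.

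The transcripts closest in pattern to each gene were sought among the other genes of at least 1 CPM on average (13025, or 13026 for Ptger2 and Alox15), as the smallest root mean square difference of centred log2 CPM over the 16 libraries. Closest to Ptges were Urah (0.145), Ifngr1 (0.197) and Il4ra (0.204). Closest to Alox5 were Csf1r (0.206), H2-DMb2 (0.224) and Cd207 (0.234), of which Csf1r stands on the macrophage list and Cd207, the gene of langerin, on the Langerhans cell list. Closest to Alox5ap were Myo1f (0.279), Vim (0.279) and Adgre1 (0.296), the last a macrophage list gene. A place on a list does not show that a gene is made by that cell type only. Whether the Langerhans cell and macrophage lists separate these cell types was not tested. For Ptgs2 they were Vps37b (0.264), Kdm6b (0.278) and Zswim4 (0.289), and for Pla2g4a the closest was Scai (0.105). For the 2 sparse genes the closest were farther off, Chst11 for Ptger2 (0.404) and Arl5c for Alox15 (0.484).

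The rest of the eicosanoid pathway was described from a list of 53 further genes, of which 51 passed the count filter. Papain called 10 higher (6.04% of all genes tested) and 2 lower (2.42%) with the AhR-poor diet, and 8 higher (3.69%) and 3 lower (5.29%) with the I3C diet. In vehicle libraries the AhR-poor diet had 3 of them higher than the I3C diet (1.59% of all genes) and 0 lower (0.00%). In papain libraries it had 11 higher (7.15%) and 1 lower (0.0993%). The interaction called 0 of the 51, with 0.0181% of all genes higher and 0.00% lower. The median log2 fold change of the 51 for papain was 0.24 with the AhR-poor diet and 0.22 with the I3C diet, against -0.00 and -0.04 over all genes. For the diets it was 0.23 with vehicle and 0.16 with papain, against -0.01 and 0.01 over all genes. Of the 24 genes called in any of them, 17 had at least 1 CPM on average and are named in the following sentences.

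Several rose with papain on both diets, as Ptges did. Slco2a1, the transporter that takes prostaglandins back into cells, rose from 45.3 ± 7.19 to 107.7 ± 13.6 CPM on the AhR-poor diet and from 52.5 ± 12.8 to 122 ± 19.2 CPM on the I3C diet (SD, n = 4). Alox8, a lipoxygenase of the epidermis, rose from 1.01 ± 0.0806 to 5.28 ± 0.333 CPM (log2 fold change 2.39) and from 1.01 ± 0.263 to 10.5 ± 4.98 CPM (3.37). Ltb4r1, the high-affinity leukotriene B4 receptor, rose by a log2 fold change of 1.14 with the AhR-poor and 1.11 with the I3C diet. Without T108 the I3C value of Ltb4r1 was 0.99, just under the fold limit. The secreted phospholipase gene Pla2g2d rose by 2.04 and 2.55. Alox12e, an epidermal lipoxygenase, was the 1 gene of the list called lower on both diets, from 365 ± 61.1 to 138 ± 8.58 CPM on the AhR-poor diet and from 327 ± 93.7 to 110.9 ± 44.4 CPM on the I3C diet.

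Other genes were called with papain on 1 diet. On the I3C diet the keratinocyte phospholipase Pla2g4e rose from 36.2 ± 9.54 to 119 ± 20.7 CPM, Pla2g4d rose by 1.99 and Ltb4r2, the low-affinity leukotriene B4 receptor, by 1.36 on the log2 scale. Cysltr1, a receptor of cysteinyl leukotrienes, decreased by 1.53 from 11.997 ± 1.999 to 4.15 ± 0.777 CPM, and Mgst2, which can make leukotriene C4, decreased by 1.01. The call of Mgst2 lay at the fold limit and was lost without T110, T111, T113 or T114 (-0.92 to -0.97). None of these 5 had an interaction that passed (adjusted p from 0.125 to 0.72), so a difference between the diets in their papain effect was not shown. On the AhR-poor diet Alox12, the platelet-type lipoxygenase, decreased by 1.25 (53.9 ± 15.1 to 22.7 ± 7.47 CPM) and Ptgdr, a prostaglandin D2 receptor, rose by 1.67 (0.654 ± 0.225 to 2.09 ± 1.02 CPM). Their interactions did not pass either (adjusted p = 0.794 for Alox12 and 0.441 for Ptgdr), and Alox12 on the I3C diet was -0.98 (adjusted p = 0.0101), just outside both limits. Cyp4f18, a cytochrome P450 that inactivates leukotriene B4, had the largest papain effect of the named genes on the AhR-poor diet (log2 fold change 5.58, SE 0.71, adjusted p = 3.47e-05), from 0.359 ± 0.0766 to 17.3 ± 12.5 CPM, with an interaction of 2.82 (adjusted p = 0.458). The neutrophil marker sum was 4.02 to 5.06 CPM in those vehicle and 80.3 to 542 CPM in those papain libraries, and its part in the result was not tested. Of the exonic bases of Ptgdr, 705 of 3187 are shared with a gene on the other strand.

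Between the diets, the highest fold belonged to Ptgis, the prostacyclin synthase. It was at most 0.0255 CPM in I3C vehicle, at most 0.128 in I3C papain, 0.188 to 0.981 in AhR-poor vehicle and 7.12 to 21.1 CPM in AhR-poor papain libraries. With vehicle, the AhR-poor level was at least 5.65-fold higher than the I3C level, computed against 3 counts per library, and papain raised it by 4.82 on the log2 scale on that diet. With papain the fitted difference between the diets, 8.59, rests on an I3C group near 0 and ran from 8.17 to 10.25 with 1 library left out, so its size is uncertain. The call with vehicle was lost without T100, T108, T109, T110 or T111 (adjusted p up to 0.0294). The fibroblast marker sum given above was likewise low on the I3C diet, higher in AhR-poor vehicle and highest in AhR-poor papain libraries. The sum of 6 endothelial markers was 0.861 to 3.09 CPM in I3C vehicle, 0.856 to 2.34 in I3C papain, 12.7 to 32.3 in AhR-poor vehicle and 21.0 to 52.5 CPM in AhR-poor papain libraries, with 6 of 6 called in both comparisons of the diets. The part of these cells in the result was not tested. Cyp4f18 was 3.21 to 33.5 CPM in AhR-poor papain libraries and at most 1.29 CPM in I3C papain libraries. Its fitted papain effect on the I3C diet was above 0 too, because the interaction given above is smaller than the AhR-poor effect, but it was not called. The neutrophil marker sum was 80.3 to 542 CPM in AhR-poor papain and 44.6 to 74.4 CPM in I3C papain libraries, and its part was not tested. Between the diets with papain, Ltc4s, the leukotriene C4 synthase, was 3.27 ± 0.583 against 1.43 ± 0.476 CPM. Akr1c18, a reductase of prostaglandins, was 20.1 ± 3.75 against 6.09 ± 3.78 CPM there. Both of these calls were lost without T104, T107, T112, T113, T114 or T115, with adjusted p up to 0.0314 for Ltc4s and 0.0237 for Akr1c18. Hpgds, the hematopoietic prostaglandin D synthase, was called higher on the AhR-poor diet with vehicle (12.6 ± 1.78 against 5.49 ± 2.01 CPM) and with papain on the I3C diet, but its call between the diets was lost without any 1 of 12 libraries (all but T106, T109, T112 and T113; adjusted p up to 0.047), and its papain call without T106, T108, T110 or T111 (log2 fold change as low as 0.77). Exonic bases shared with a gene on the other strand number 268 of 1014 for Ltc4s, 181 of 1855 for Cyp4f18 and 156 of 2567 for Ptgis, and Pla2g4e shares 153 of 6960 with a gene on its own strand. Pla2g4d was the 1 gene of the 51 called lower on the AhR-poor diet with papain, at 1.28 ± 0.231 against 2.95 ± 1.01 CPM, and without T114 its log2 fold change of -0.95 missed the fold limit.

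**Figure D5:**
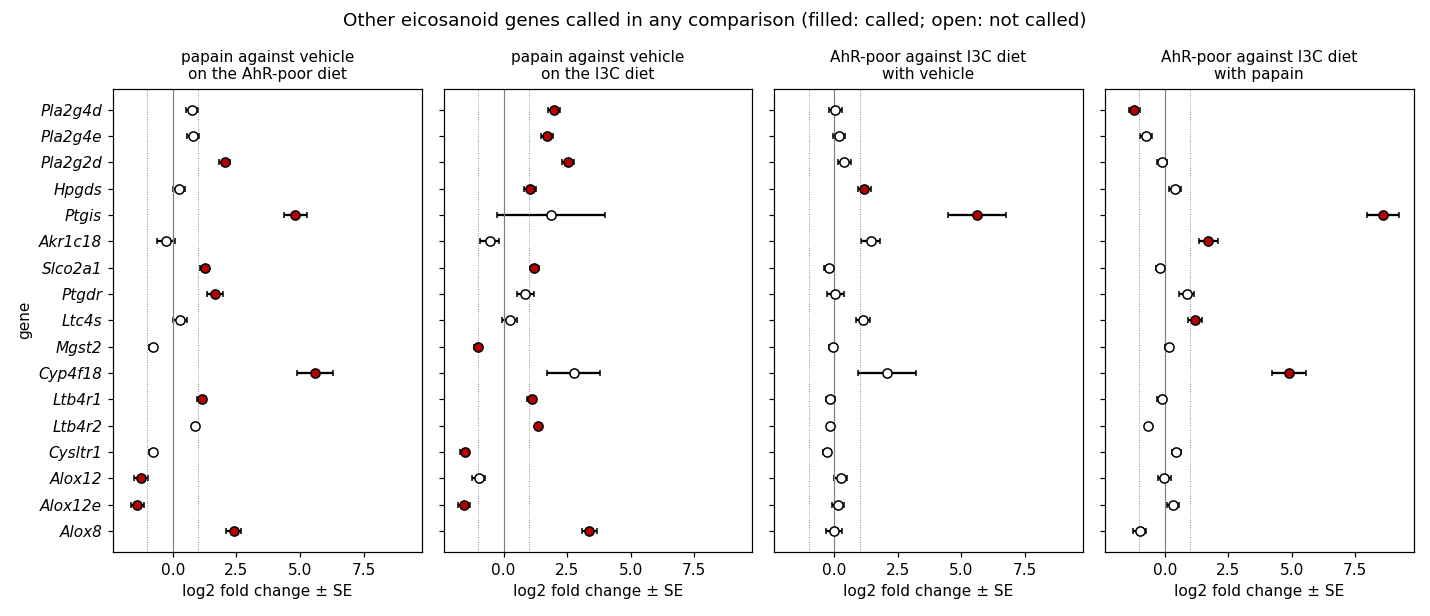
Log2 fold change with its standard error of the 17 further eicosanoid genes (rows) in the 4 comparisons of 2 groups (panels), filled where called. Slco2a1, Alox8, Ltb4r1 and Pla2g2d are filled above 0 and Alox12e below 0 in both papain panels, and Ptgis, at or near 0 in the I3C libraries, has the highest fitted value in the panel of the diets with papain (8.17 to 10.25 with 1 library left out).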

How the data were processed

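Each library held the epidermal cells of 1 mouse. The authors made the libraries with the TruSeq Stranded mRNA kit, aligned reads with STAR to mm10 and deposited raw counts per gene and library, without normalization; the counting tool, annotation and strand setting are not given in the sources used here. Groups were taken from the labels. The sequencing unit of each library is not given, so no batch term was fitted. The 10 genes and all lists were chosen with earlier results of these data known.

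The 22155 genes with a total of 10 counts or more were tested in edgeR 4.0.16 (R 4.3.3) with TMM factors, 1 mean per group over all 16 libraries and the robust quasi-likelihood F test, Benjamini-Hochberg adjusted over all genes tested. Intervals are the estimate ± its standard error times the t quantile for 12 residual degrees of freedom. The two-sided exact permutation test used log2(CPM + 0.1) over 70 arrangements of 8 libraries. Alternatives were scaling by RLE factors or by library size only, gene filters (filterByExpr, or a minimum of 1 count), DESeq2 1.42.0, only the 8 libraries compared, other thresholds and each library left out. Positions and exon lengths are from GENCODE for GRCm38, and promoters from RefSeq. Among further pathway genes, the called genes whose mean reached 1 CPM were named.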

Additional observations from a re-analysis of the deposited data

Results flagged for a closer look

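The I3C vehicle library T108 stood apart for 2 of the 10 genes. Its Ptgs2 level was 234 CPM, against 84.3 to 87.8 CPM in the other 3 libraries of the group, a gap of 0.977 of the group's range, above Dixon's 95% critical value for 4 samples. Its Ptger4 level was 52.6 CPM, against 18.01 to 22.5 CPM in the others, a gap of 0.869 of the range. In 40 groups of 4 libraries tested over the 10 genes, these 2 were above the critical value, and chance alone gives about 1 in 20.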

How the results depend on the processing

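No paired analysis was possible because no replicate code occurs in more than 1 group. Of the 10 genes, 0 were called higher between the diets with vehicle, but DESeq2 called 1 (Alox5, adjusted p = 1.07e-04; 2.69% of all genes), a threshold of 0.05 called 1 (2.63%), the fit of only the 8 libraries compared called 2 (Alox5 and Alox5ap; 2.49%), and leaving out 1 library called 0 to 1. With no minimum fold change, 1 gene, Pla2g4a, was called lower with papain on the AhR-poor diet (10.1% of all genes) and 1, the same gene, on the I3C diet (12.9%). Leaving out 1 library gave 2 to 4 genes called higher with papain on the AhR-poor diet, 3 to 4 between the diets with papain, and 1 with papain on the I3C diet throughout. The shares of all genes called in these refits are not given here. With all 16 libraries the shares called higher were 6.04%, 7.15% and 3.69% in the same order, and 1.59% between the diets with vehicle.

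Near 0, the Hpgd value between the diets with vehicle turned to -1.43e-04 with RLE factors and -2.75e-04 in DESeq2, and ran from -0.114 to 0.0617 with 1 library left out. Other values that changed sign when 1 library was left out were those of Ptges (-0.222 to 0.00769) and Ptger4 (-0.62 to 0.13) between the diets with vehicle, Pla2g4a between the diets with papain (-0.0259 to 0.162), and Hpgd (-0.168 to 0.0584), Ptger4 (-0.345 to 0.0416) and Ptgs1 (-0.199 to 0.0403) for papain on the AhR-poor diet. The same held for Ptger2 (-0.85 to 0.16) and Ptgs2 (-0.48 to 0.18) for papain on the I3C diet, and also for the interaction of Alox5 (-0.27 to 0.53). None of these was called. Alox5 between the diets with papain lost its call with all genes of at least 1 count (adjusted p = 0.011) and with only 8 libraries (0.0287), and Alox5ap for papain on the AhR-poor diet gained one with filterByExpr (0.00792), DESeq2 (8.17e-04), a threshold of 0.05 and only 8 libraries (0.00582). The cause was not tested. Depth limits Ptger2 and Alox15, which had few counts outside the AhR-poor papain group. For the 17 further pathway genes the alternatives were added after seeing the data, and 27 called values kept their direction throughout. Not all stayed called: 4 lost the call with only 8 libraries, 3 with all genes of at least 1 count, 2 with RLE factors, 2 with library size only and 1 in DESeq2. Over the refits with 1 library left out, a call was lost 39 times.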
